A study of Mus musculus with 300 samples.

Results

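The 10 genes described here encode core subunits of the Polycomb repressive complexes: Ezh1, Ezh2, Eed and Suz12 of complex 2 (PRC2), and Ring1, Rnf2, Bmi1, Pcgf6, Cbx2 and Scml2 of, or partnered with, complex 1 (PRC1). They were chosen by name, not by their measured levels, from 23354 gene names, though earlier results of these data were known. All 10 were in the expression table. Of these, 9 passed the filter on low values (1 FPKM or more in at least 30 cells) and were tested among 10411 genes, and Ring1 did not. FPKM, fragments scaled to transcript length and to the mapped fragments of the cell, is a level per transcript length, so levels of different genes can be set side by side on it.

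The study sequenced polyA RNA of 300 single spermatogonia, the premeiotic germ cells of the testis, from untreated adult mice that carry an ID4-EGFP reporter. Every cell came from a sort for EGFP-positive spermatogonia, and each of the 4 preparations pooled testes of at least 2 mice, so animals within a preparation cannot be told apart. The strain was not given in the sources used here, and all groups share the reporter, so no cell without it served as control. Within this population the submitters set quartiles of EGFP fluorescence, with Q1 as the brightest group and Q4 as the dimmest. Q1 held 79 cells, Q2 78, Q3 71 and Q4 72, with 15 to 22 cells for each quartile of a preparation. The question the design poses is how gene expression differs with EGFP brightness, and the unit of replication was the preparation (n = 4). FPKM summed to 348305 to 682985 per cell, and 2934 to 7817 genes per cell reached 1 FPKM. The number of fragments per cell was not used here, so an exact 0 says only that a gene is listed at 0.

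Most of the listed spermatogonia markers were found in most cells, but not all of them. Dazl and Uchl1 were at 1 FPKM or more in 100% of cells, Ddx4 in 99.7%, Sall4 in 98.0% and Zbtb16 in 89.3%. The rest of the list was less widely detected. Sohlh1 was in 85.3% of cells and Lin28a in 67.3%. Gfra1 was in fewer cells than Lin28a but in over 50%, and Kit was in under 50%. By the marker lists of other testis cells, 20 cells matched another type (at least 3 and at least 50% of a list's measured markers at 5 FPKM or more): 11 on the spermatid list, 8 on the macrophage list and 1 on the peritubular myoid list. Values with and without these cells are given where a difference or trend in level passed its test.

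PRC2 methylates histone H3 on lysine K27 through EZH1 or EZH2, which need EED and SUZ12 for activity, and the methyl mark is bound by CBX proteins of canonical PRC1. PRC1 ubiquitinates histone H2A through RING1 or RNF2, each paired with a PCGF protein such as BMI1 or PCGF6. Both complexes keep developmental regulators such as the Hox genes silent, and in the male germ line they are known for control of the gene programs of stem cells and meiosis, with SCML2 as a germline-enriched partner.

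The ligase paralogs differed widely in detection, with Ring1 in 11 cells and Rnf2 in 217, and the sequences just before their starts are shown for that reason, together with that of Scml2, which was the most widely detected of the 10 genes. Each is the 100 bases before the RefSeq start, 5′ to 3′ on the gene's own strand, from the RefSeq promoter table (build GRCm38.p6), with CG dinucleotides in capitals. That of Ring1 is chr17:34024681-34024780 (minus strand), that of Rnf2 is chr1:151500992-151501091 (minus strand) and that of Scml2 is chrX:161162650-161162749 (plus strand), which lies inside the Scml2 gene as annotated in GENCODE vM21.
Ring1: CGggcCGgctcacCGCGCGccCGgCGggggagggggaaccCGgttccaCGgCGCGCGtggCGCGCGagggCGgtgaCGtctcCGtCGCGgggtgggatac
Rnf2: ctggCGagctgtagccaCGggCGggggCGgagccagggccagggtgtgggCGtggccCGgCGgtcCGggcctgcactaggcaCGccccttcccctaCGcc
Scml2: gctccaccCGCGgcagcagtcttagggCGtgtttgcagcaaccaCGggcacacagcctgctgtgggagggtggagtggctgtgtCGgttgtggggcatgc

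The 100 bases held 20 CG dinucleotides for Ring1, 10 for Rnf2 and 5 for Scml2. Over windows of 300 bases (250 before to 50 after the start), Ring1 had 37 CG dinucleotides, and 5.58% of the 32851 windows in the table held as many or more. The Rnf2 window had 30, which 11.7% of windows reached, and the Scml2 window had 13, which 37.9% reached, beside a median of 7 over all windows. The other 6 genes with an entry were Suz12 with 41, Ezh2 with 31, Ezh1 and Bmi1 with 23 each, Pcgf6 with 22 and Eed with 17. Among these 9 windows Suz12, found in 237 cells, had the most CG dinucleotides. Ring1, with the fewest cells, had the second most, and Scml2, the most widely detected, had the fewest. The Scml2 and Ezh2 windows do not include the start of their genes as annotated in GENCODE vM21 and lie inside them. These counts describe the sequence only. A CG dinucleotide reads the same on both strands, and methylation was not measured.

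Across the 300 cells the 10 genes fell into a highly expressed pair, a group of 6 at intermediate level, and Cbx2 and Ring1 below them. Eed, the PRC2 subunit that binds methylated H3K27, was highest, with a mean of 6.26 ± 0.58 on the log2(FPKM + 1) scale (mean of preparations ± SD, n = 4) and 1 FPKM or more in 291 cells. Scml2 followed at 5.65 ± 0.50 and was detected in 296 cells. Next came Bmi1, a PCGF subunit of canonical PRC1, at 4.05 ± 0.50 in 240 cells, the ligase Rnf2 at 3.73 ± 0.43 in 217 cells and the methyltransferase Ezh1 at 3.73 ± 0.42 in 238 cells. Suz12, the scaffold of PRC2, was at 3.52 ± 0.51 in 237 cells, Pcgf6, the PCGF subunit of a variant PRC1, at 3.35 ± 0.44 in 200 cells, and the methyltransferase Ezh2 at 3.22 ± 1.05 in 194 cells. Cbx2, a chromodomain reader of canonical PRC1, was at 1.95 ± 0.19 in 148 cells, and Ring1 at 0.12 ± 0.06 in 11 cells.

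Only some neighbours in this order were separated in every preparation. Eed exceeded Scml2 by 0.61 ± 0.25, Scml2 exceeded Bmi1 by 1.59 ± 0.24 and Cbx2 exceeded Ring1 by 1.83 ± 0.21, each in 4 of 4 preparations. Bmi1 exceeded Rnf2 by 0.32 ± 0.26 and Suz12 exceeded Pcgf6 by 0.17 ± 0.19, also in 4 of 4 but by amounts near their own spread. Rnf2 and Ezh1 differed by 0.00 ± 0.59 and kept this order in 2 of 4 preparations, and Ezh1 and Suz12 (0.21 ± 0.24), Pcgf6 and Ezh2 (0.13 ± 0.68) and Ezh2 and Cbx2 (1.27 ± 1.16) kept it in 3 of 4. The middle of the order also depended on the scale. By mean FPKM over cells, Eed stood at 139, Scml2 at 69, Bmi1 at 46.8, Pcgf6 at 41.6, Rnf2 at 40.6, Ezh2 at 39.6, Ezh1 at 35, Suz12 at 26.7, Cbx2 at 13.2 and Ring1 at 0.450, so that Pcgf6 and Ezh2 moved above Ezh1 and Suz12.

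**Figure D1:**
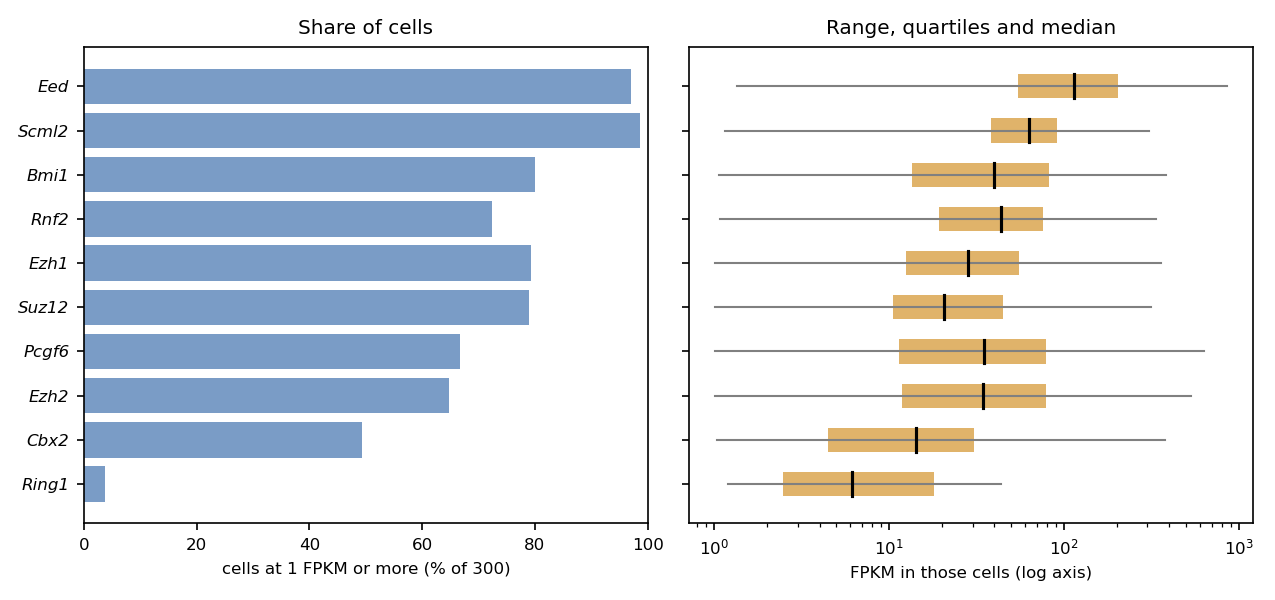
Share of the 300 cells with each gene at 1 FPKM or more (left, percent) and the FPKM in those cells on a log axis (right; line, lowest to highest; box, lower to upper quartile; black bar, median). Eed and Scml2 were in 97.0% and 98.7% of cells, and Ring1 in 3.67%.

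In the cells that held them, the genes differed in how evenly they were distributed. The upper quartile of FPKM among detecting cells was 2.39 times the lower for Scml2 and 3.73 times for Eed, against 6.95 times for Pcgf6, 6.87 times for Cbx2 and 6.64 times for Ezh2. Cbx2 was also low where detected, with a median of 14.2 FPKM, beside 114 FPKM for Eed and 62.7 FPKM for Scml2. Pcgf6 and Ezh2 were in about the same share of cells (66.7% and 64.7%) with medians of 34.8 and 34.6 FPKM in those cells. The spread of single cells holds both counting noise and differences between cells, which cannot be told apart here.

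Transcripts of both PRC2 methyltransferases were found in most cells. Ezh1 and Ezh2 were together at 1 FPKM or more in 158 cells (52.7%), Ezh1 alone in 80 (26.7%), Ezh2 alone in 36 (12%) and neither in 26 (8.67%). The mean of Ezh2 minus that of Ezh1 on the log2 scale was, for Q1 to Q4, -0.57 ± 0.69, -0.25 ± 1.11, -0.65 ± 0.94 and -0.48 ± 1.61 (SD, n = 4). Its slope over quartiles was 0.01 per step to the next brighter quartile (exact two-sided permutation test of quartile labels within preparations, p = 0.929). Preparation 4 differed in sign from the rest: Ezh2 exceeded Ezh1 there in all 4 quartiles (by 0.31, 1.27, 0.54 and 1.56 from Q1 to Q4), and Ezh1 exceeded Ezh2 in every quartile of the other 3 preparations.

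Ezh2 was the gene of the 10 that varied most between preparations. Its means in Q1 were 2.93, 3.34, 3.30 and 4.25 in preparations 1 to 4, and those in Q4 were 1.19, 2.74, 2.46 and 4.63. The 4 means of preparation 4 ran from 4.25 to 5.11 and all lay above the other 12 (highest 3.78), a position in that preparation that 66 of the 10411 genes shared (0.634%). Cells with Ezh2 made up 47.8%, 62.2%, 57.7% and 87.5% of preparations 1 to 4. Genes per cell were in the same order, at 4368, 5813, 5572 and 6216, and so were the mean log2 levels of the S phase list (4.55, 5.24, 4.77 and 5.33) and of the G2 and mitosis list (3.83, 4.38, 4.0 and 4.91). The part of depth or of cycling cells in the level of Ezh2 was not tested. Animals, capture run and library of a preparation cannot be told apart.

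**Figure D2:**
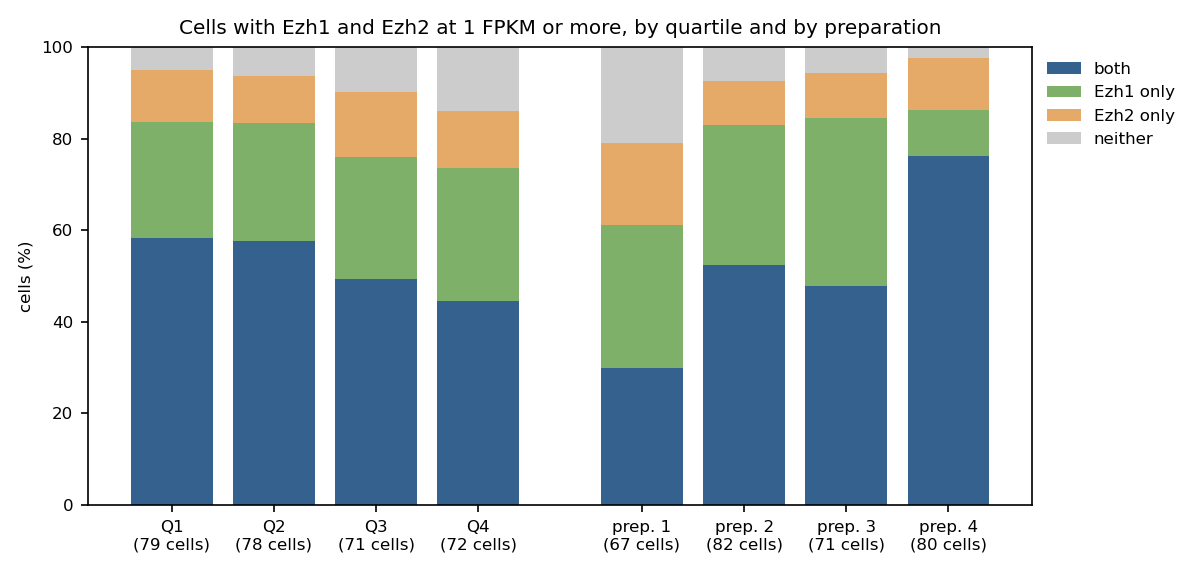
Stacked bars give the percent of cells with both Ezh1 and Ezh2 at 1 FPKM or more, with one of them, or with neither, for the 4 quartiles (left) and the 4 preparations (right). Cells with both made up 29.9% of preparation 1 and 76.3% of preparation 4, and 58.2% of Q1 and 44.4% of Q4.

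Cells that held Eed, Suz12 and Ezh1 or Ezh2 at 1 FPKM or more made up 72% of all cells. The PRC2 subunit genes Rbbp4 and Rbbp7 were not part of this count. By quartile, averaged over preparations, the share from Q1 to Q4 was 76.1% ± 16.5, 75.6% ± 21.9, 73.1% ± 18 and 57.5% ± 22.5 (SD, n = 4), and by preparation it was 43.3%, 81.7%, 71.8% and 86.3%. The share in preparation 1 went with its lowest number of genes per cell. Every preparation held all 4 quartiles, so the spread between preparations does not measure how sure the distance between quartiles is. Cells held 2 to 10 of the 10 genes, with means of 7.15 ± 0.78 in Q1 and 6.5 ± 0.73 in Q4 beside 5687 ± 697 and 5356 ± 810 genes per cell. No test was made of these shares, and the part of depth in them was not tested.

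Between EGFP quartiles none of the 9 tested genes passed the threshold (adjusted p under 0.05, limma with preparation as a block, Benjamini-Hochberg over 10411 genes). The count was 0 of 9 in Q1 against Q4, where 3.25% of all genes were called, and 0 of 9 in the linear trend over quartiles, where 4.51% were called. It was also 0 of 9 for any difference among the 4 quartiles (1.64% of all genes called) and for Q1 against Q2 (0.0192%), Q2 against Q3 (0%) and Q3 against Q4 (0.00961%). At an unadjusted p under 0.05, 2 of the 9 (22.2%) passed in Q1 against Q4 beside 16.3% of all genes, and 3 (33.3%) in the trend beside 17.7%. For any difference and for each pair of neighbouring quartiles, 0 passed at that level.

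The estimates themselves leaned to the bright side. Of the 9 genes, 7 were higher in Q1 than in Q4, with a median difference of 0.33 on the log2(FPKM + 1) scale, against 6207 of 10411 and a median of 0.10 over all genes tested. The whole table leaned the same way: 283 of its 338 calls (83.7%) were higher in Q1. After each mean was centred on its median gene, every Q1 minus Q4 difference was 0.18 smaller, and 145 of 251 calls (57.8%) were higher in Q1. Under that centring, Bmi1 and Scml2 changed sign and the other 7 genes kept theirs.

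**Figure D3:**
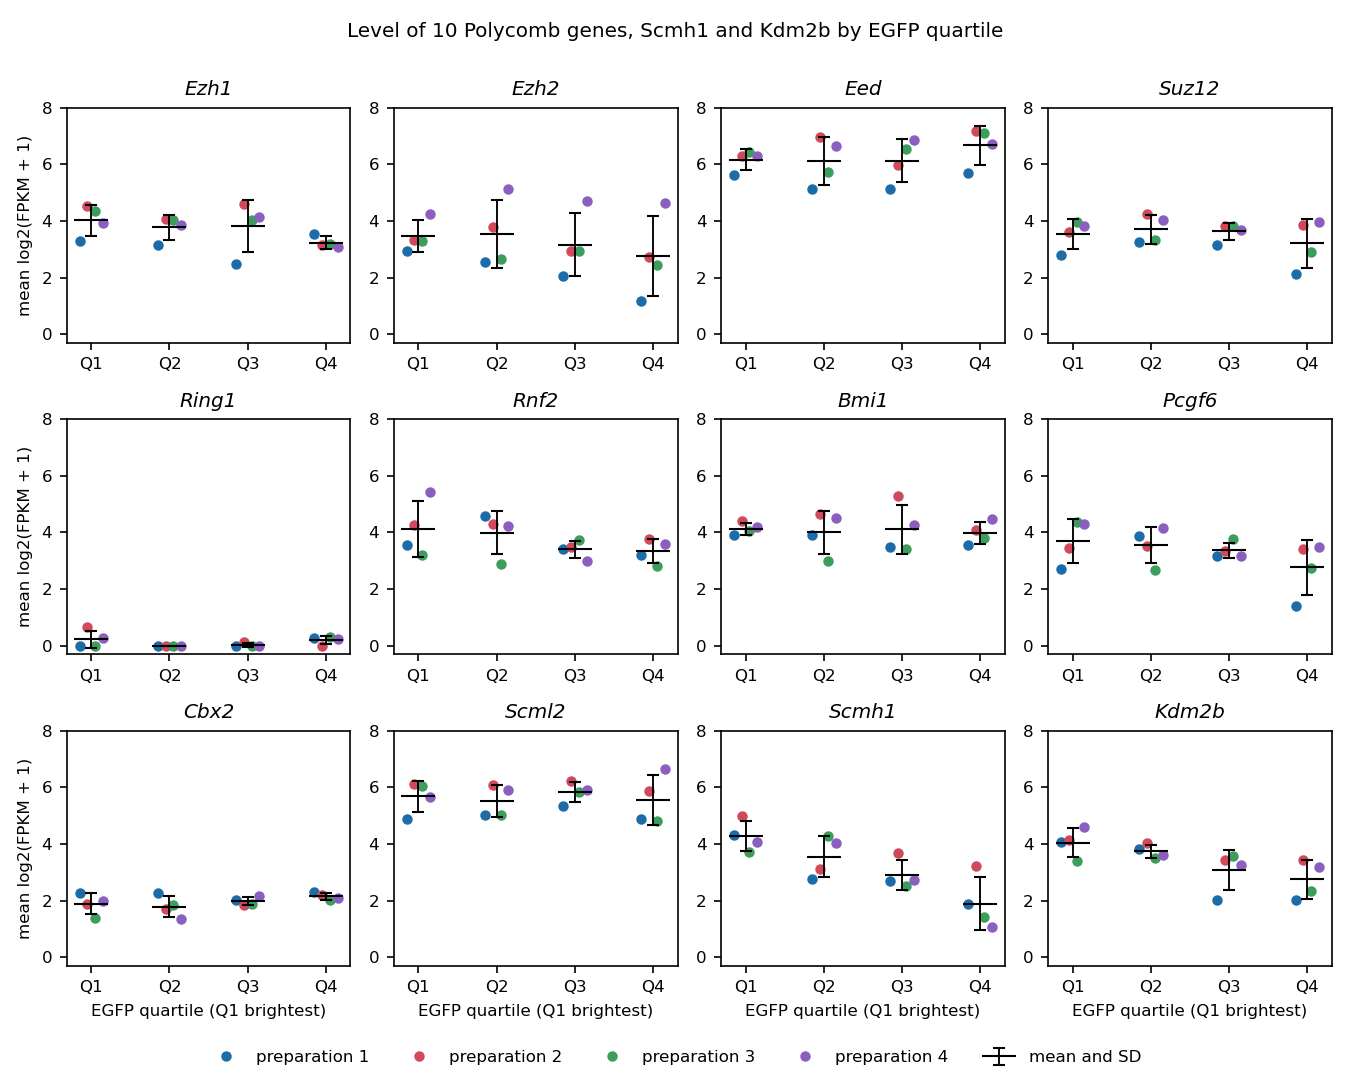
Mean log2(FPKM + 1) of each gene by EGFP quartile, with 1 coloured point for each preparation and black bars for the mean and SD of the 4. Scmh1 fell from 4.29 in Q1 to 1.89 in Q4, and the means of Ezh2 in preparation 4 lay above those of all other preparations.

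Among the PRC2 genes, the methyltransferases were estimated higher in the brightest cells and Eed lower. Ezh1 had means of 3.28, 4.52, 4.33 and 3.94 in Q1 of preparations 1 to 4, and 3.55, 3.13, 3.18 and 3.06 in Q4. The groups overlapped, since preparation 1 had more Ezh1 in Q4 than in Q1, and the difference was 0.79 (SE 0.37, 95% interval 0.02 to 1.55, adjusted p = 0.289). For Ezh2 it was 0.70 (SE 0.36, interval -0.04 to 1.45, adjusted p = 0.339), higher in Q1 in 3 of 4 preparations, with preparation 4 the exception. It was 0.36 without preparation 1 and 1.06 without preparation 4. With the number of genes per cell as a covariate the Ezh2 difference was 0.25, and the Ezh1 difference 0.53. The same covariate gave 0.17 for Suz12, -0.15 for Bmi1, -0.08 for Cbx2 and -0.34 for Scml2. For Rnf2 the difference went from 0.76 to 1.02, for Pcgf6 from 0.94 to 0.95 and for Eed from -0.52 to -0.72.

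Eed went the other way in every preparation. Its means were 5.61, 6.28, 6.43 and 6.30 in Q1 and 5.69, 7.17, 7.11 and 6.72 in Q4, so Q4 was the higher of each pair while the groups overlapped through preparation 1. The difference was -0.52 (SE 0.29, interval -1.12 to 0.08, adjusted p = 0.392). The 4 means of preparation 1 (5.13 to 5.69) lay below the other 12, as did those of 902 genes (8.66%). Suz12 differed by 0.33 (SE 0.35, interval -0.39 to 1.04, adjusted p = 0.713), in favour of Q1 in 2 of 4 preparations, and it was 0.09 without preparation 3, 0.51 without preparation 2 and 0.04 with log2 of the mean FPKM.

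Of the PRC1 genes, Pcgf6 and Rnf2 were higher in Q1 in all 4 preparations without passing the test. Pcgf6 had means of 2.70, 3.45, 4.37 and 4.30 in Q1 and 1.41, 3.43, 2.75 and 3.48 in Q4. Preparation 2 hardly differed between them, and the groups overlapped. The difference of 0.94 (SE 0.42, interval 0.07 to 1.81, adjusted p = 0.261) was the largest estimate of the 9. Rnf2 had means of 3.56, 4.26, 3.20 and 5.44 in Q1 and 3.20, 3.79, 2.81 and 3.61 in Q4, a difference of 0.76 (SE 0.41, interval -0.08 to 1.60, adjusted p = 0.363). Preparation 4 gave the widest gap, and without it the Rnf2 difference was 0.41. With log2 of the mean FPKM the Pcgf6 difference was 0.47.

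Bmi1, Cbx2 and Scml2 had the smallest estimates. Bmi1 differed by 0.16 (SE 0.36, interval -0.58 to 0.89, adjusted p = 0.882) and Scml2 by 0.13 (SE 0.32, interval -0.52 to 0.79, adjusted p = 0.890). Cbx2 was lower in Q1 in 4 of 4 preparations, by as little as the step from 2.28 to 2.30 in preparation 1, with a difference of -0.26 (SE 0.31, interval -0.89 to 0.37, adjusted p = 0.746) that was -0.14 without preparation 3. Without the 20 cells matching another type, Cbx2 differed by -0.11 and Bmi1 by 0.38. The lowest bound of the 9 intervals was -1.12 (Eed) and the highest was 1.81 (Pcgf6), and no single gene's interval held both. For each gene, these 4 preparations do not exclude differences inside its own interval. In the trend, adjusted p ran from 0.212 for Pcgf6 (0.30 per quartile) and 0.217 for Rnf2 (0.29) to 0.977 for Scml2 (0.01).

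The share of cells with each gene gave the same count. Its slope over quartiles was tested for every gene with an exact test that ran through all 331776 ways to reassign quartiles inside each preparation, where p cannot fall below 6.03e-06, and 0 of the 9 genes passed after adjustment, beside 1.13% of all genes. At an unadjusted exact p under 0.05, 2 of the 9 (22.2%) passed, beside 14.1% of all genes. These were Ezh2, whose share went from 68.8% ± 10.1 in Q1 to 56.3% ± 22.6 in Q4 (4.30 points per quartile, exact permutation p = 0.00915, adjusted p = 0.172), and Suz12, from 82.6% ± 13.4 to 69.7% ± 21.2 (4.23 points, exact permutation p = 0.0379, adjusted p = 0.315). Pcgf6 had a slope of 4.32 points, Rnf2 3.92 and Ezh1 3.46, while Cbx2 was in 47.5% of Q1 cells and 49.6% of Q4 cells. Eed and Scml2 were in 95.6% of cells or more in every quartile and left little room for a slope.

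Ring1 was nearly undetected while its paralog was common. Rnf2 was in 217 cells and Ring1 in 11 of 300 (3.67%, exact Clopper-Pearson 95% interval 1.84% to 6.47%, for counting error of cells only). By quartile Ring1 was in 5 of 79 cells in Q1, 0 of 78 in Q2 (a limit of 3 cells, or 3.85%, against an exact upper bound of 4.62%), 2 of 71 in Q3 and 4 of 72 in Q4. All 4 preparations had at least 1 such cell, and the highest single value was 43.6 FPKM, in Q1 of preparation 2. Of 6 genes around Ring1 on chromosome 17, 5 were detected more often (Slc39a7 in 193 cells, Wdr46 in 156, Vps52 in 94, Rxrb in 64 and H2-Ke6 in 59), and B3galt4 was in 5 cells. The annotation lists no gene sharing exon bases with Ring1 (chr17:34020792-34024680, minus strand, GRCm38). Rnf2 shares exon bases with Trmt1l on the opposite strand, which was itself in 70 cells, and since the kit does not mark strand their reads may be mixed. The same holds for Ezh2 with Gm26625, Suz12 with Gm26563 and Eed with E230029C05Rik, the last of which was in 2 cells.

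Within preparations, single cells showed little common variation among the 10 genes. Pearson's r over 300 cells ran from -0.11 for Ring1 and Pcgf6 to 0.16 for Eed and Rnf2, a description of sparse values that share library and depth. Ezh2 had the highest r with the mean of the S phase list (0.30) and of the G2 and mitosis list (0.33), and its r with the number of genes per cell was 0.21. For Ezh1 the same values were 0.03, 0.05 and 0.22. With the S phase list and the G2 and mitosis list, r was 0.24 and 0.17 for Eed. It was 0.19 and 0.24 for Scml2 and 0.18 and 0.14 for Suz12, and from -0.05 to 0.09 for the remaining genes.

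Over the 16 means, each gene centred within preparation, the genes most like each member were found among all genes tested, and their r is given as a description of 16 points that share depth. For Ezh2 these were Parp1, a DNA repair enzyme (r = 0.91), Sepsecs (0.87) and Tmco1 (0.86). Ezh1 was most like Vps8 (0.90), Ndel1 (0.89) and Bbs9 (0.88), Eed most like Cpeb4 (0.86), Rcbtb1 (0.85) and Arl1 (0.85), and Suz12 most like Qrich1 (0.89), Fancf (0.86) and Pcgf6 (0.84). Suz12 with Pcgf6 was thus the one pair in which 1 of the 10 genes was among the 3 most like another. Rnf2 was most like Mfsd4 (0.85), Pskh1 (0.84) and Tmem55a (0.81), Bmi1 like Ap3d1 (0.89), Rfx1 (0.83) and Zfp958 (0.80), and Pcgf6 like Ict1 (0.88), Rpl15 (0.85) and Gtsf1 (0.85). Cbx2 was most like Klhl2 (0.90), Prcp (0.88) and Fmnl2 (0.81), and Scml2 like Kansl1 (0.90), Gpi1 (0.87) and Rhpn2 (0.85).

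In the wider Polycomb lists, 1 gene rose from dim to bright cells in both tests and another in the trend alone. Outside the Hox genes, 41 of 44 further genes were tested, and 1 was called in Q1 against Q4 (2.44%, beside 3.25% of all genes) and 2 in the trend (4.88%, beside 4.51%), shares near those of the whole table. The median Q1 minus Q4 difference was 0.11 over the PRC2 accessory list, 0.17 over canonical PRC1, 0.08 over variant PRC1 and 0.08 over the enzymes that remove the marks, beside 0.10 over all genes tested. Of 8 tested canonical PRC1 genes, 2 (25%) had an unadjusted p under 0.05 in each test. Over all genes the shares were 16.3% in Q1 against Q4 and 17.7% in the trend. Of these 2, Cbx7 was not called (Q1 minus Q4 0.66, adjusted p = 0.216, and trend 0.23 per quartile, adjusted p = 0.138). The called gene was Scmh1, a homolog of Drosophila Sex comb on midleg like Scml2. Its means were 4.34, 5.00, 3.72 and 4.09 in Q1 of preparations 1 to 4, and 1.87, 3.21, 1.42 and 1.06 in Q4. All Q1 means lay above all Q4 means. The difference was 2.40 (SE 0.42, interval 1.53 to 3.27, adjusted p = 0.00131), higher in 4 of 4 preparations, with quartile means of 4.29, 3.55, 2.91 and 1.89 and a trend of 0.78 per quartile (SE 0.13, adjusted p = 0.000388). Cells with Scmh1 made up 81.8% ± 8.3 of Q1, 65% ± 9.7 of Q2, 55.8% ± 7.9 of Q3 and 36.3% ± 22.9 of Q4 (14.6 points per quartile, exact permutation p = 6.03e-05, adjusted p = 0.0185).

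Without the 20 cells that matched another type, the Scmh1 difference was 2.59 (adjusted p = 0.00112) and its trend 0.80 (adjusted p = 0.00083). The difference was 3.70 with a pseudocount of 0.1, 1.48 with one of 5, and 2.85 with genes per cell as a covariate (adjusted p = 0.00367). The summed FPKM of the 6 spermatid markers also moved with the quartiles, from 74.9 (53.2 to 93.1 over preparations) in Q1 to 38.1 (19.2 to 69.8) in Q4. All 6 of these markers were detected, in 3.00% to 51% of cells. The 6 endothelial markers, each in 2.00% to 21.7% of cells, summed to 8.49 FPKM (5.71 to 10.2) in Q1 and 3.15 (0.05 to 5.62) in Q4, with no overlap between those groups, while the spermatid sums overlapped. The part of either list in the Scmh1 result beyond those 20 cells was not tested. With log2 of the mean FPKM in place of the mean of log2 values, the Scmh1 difference was 1.43 and lost its call (adjusted p = 0.0831), while its trend stayed called.

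**Figure D4:**
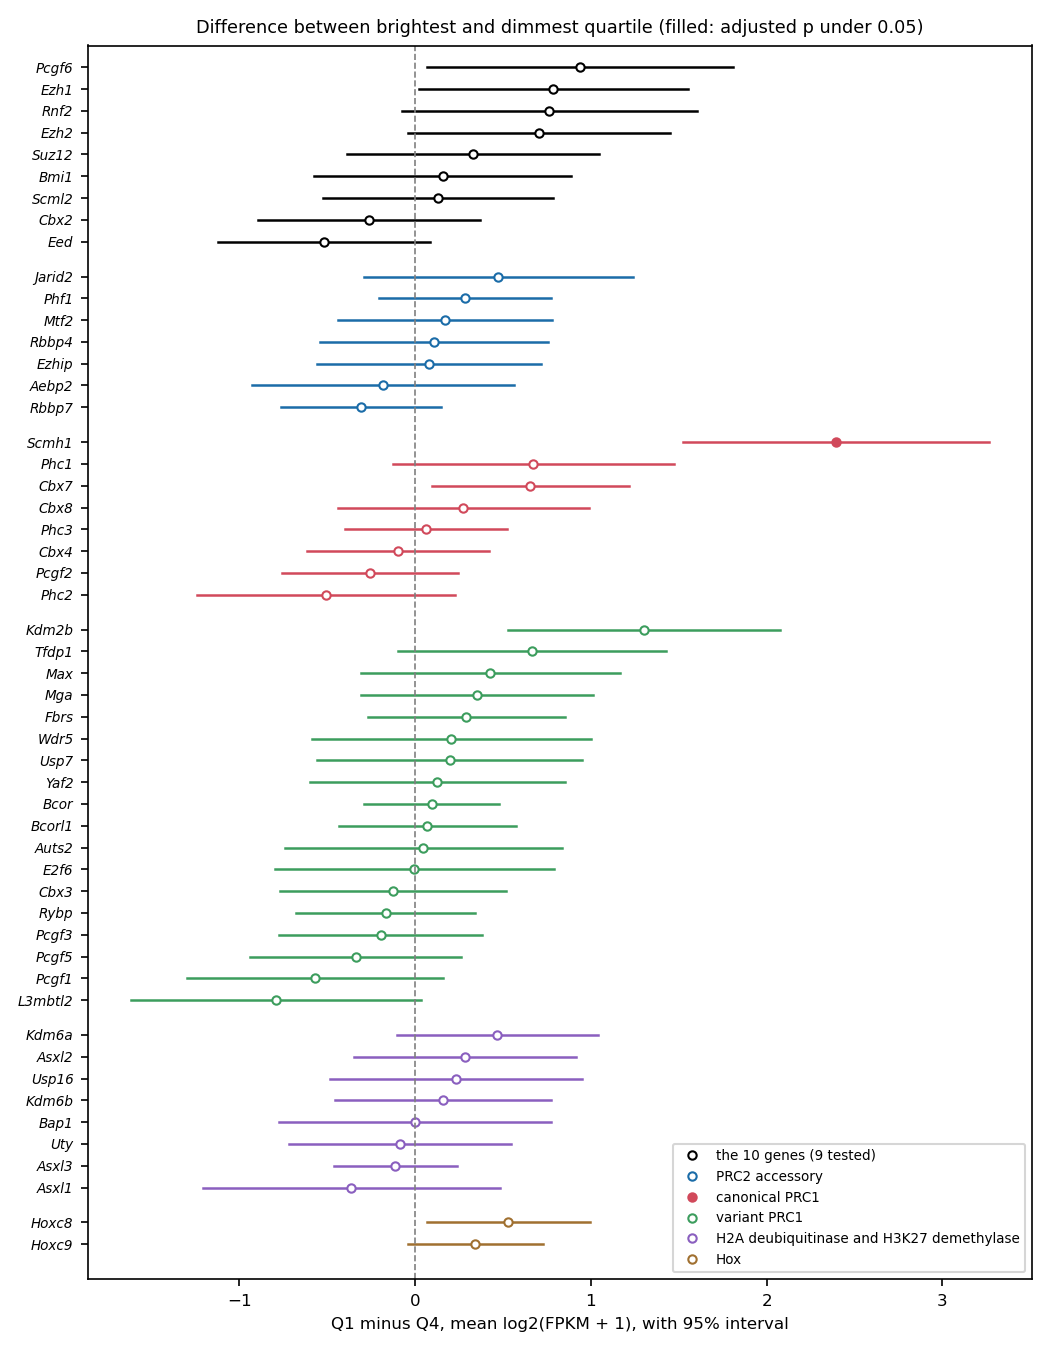
Q1 minus Q4 difference on the log2(FPKM + 1) scale with its 95% interval for every tested gene of the Polycomb lists, coloured by list, with a filled point where the adjusted p was under 0.05. Scmh1, at 2.40, was the only filled point, and the intervals of the 9 core genes ran from -1.12 to 1.81.

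Of 18 tested variant PRC1 genes, 0 were called in Q1 against Q4 (1 at an unadjusted p under 0.05) and 1 in the trend (5.56%). Over all genes, 3.25% were called and 16.3% had such a p in Q1 against Q4, and 4.51% were called in the trend. The gene was Kdm2b, the CpG-binding demethylase that brings a variant PRC1 to chromatin. Kdm2b had means of 4.07, 4.15, 3.39 and 4.61 in Q1 and 2.02, 3.44, 2.35 and 3.19 in Q4, higher in Q1 in 4 of 4 preparations with a small overlap between the groups. Its trend was 0.46 per quartile (SE 0.11, adjusted p = 0.0193), and its Q1 minus Q4 difference 1.30 (SE 0.38, interval 0.53 to 2.07, adjusted p = 0.0544). Without the 20 cells the trend was 0.51 (adjusted p = 0.0142). The trend call was lost in 5 of 13 alternatives, among them leaving out preparation 1 (0.34, adjusted p = 0.125) or preparation 4 (0.46, adjusted p = 0.0976) and the covariate for genes per cell (0.48, adjusted p = 0.0905). Kdm2b shares exon bases with Rnf34 on the opposite strand, which was in 210 cells.

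The other lists held no called gene. Of the 7 tested PRC2 accessory genes, 0 passed in either test, and 0 at an unadjusted p under 0.05. The 4 with the smallest trend p were Jarid2, which helps recruit PRC2 (Q1 minus Q4 0.47, adjusted p = 0.572, and 0.16 without preparation 1), Phf1 (0.28, adjusted p = 0.608), the histone chaperone Rbbp7 (-0.31, adjusted p = 0.534) and Aebp2 (-0.18, adjusted p = 0.859). Ezhip, a PRC2 inhibitor of germ cells, was in 82 cells and differed by 0.08 (interval -0.56 to 0.72). Phf19, Epop and Cbx6 were in 15, 17 and 10 cells and were not tested. Of the 8 enzymes and cofactors that remove the Polycomb marks, 0 passed in either test, and 0 at an unadjusted p under 0.05. The H3K27 demethylase Kdm6a differed by 0.47 (interval -0.10 to 1.04, adjusted p = 0.427), and Asxl1, a cofactor of the H2A deubiquitinase, by -0.36 (interval -1.21 to 0.48, adjusted p = 0.732). The deubiquitinase Usp16 differed by 0.23 (adjusted p = 0.811) and Asxl2 by 0.28 (adjusted p = 0.720).

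Hox genes, the classical targets of both complexes, were listed at or near 0 in most cells. Of 39 measured, 10 were at 1 FPKM in no cell, 27 in 1 to 29 cells, and 2 passed the filter, with a median of 3 cells per gene. The 2 tested were Hoxc8, in 33 cells, with a Q1 minus Q4 difference of 0.53 (adjusted p = 0.229), and Hoxc9, in 39 cells, with 0.34 (adjusted p = 0.374). At an unadjusted p under 0.05 in Q1 against Q4, 1 of these 2 passed, beside 16.3% of all genes. Without preparation 1 the differences were 0.29 and 0.18.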

How the data were processed

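Single cells were captured on C1 chips and their polyA RNA amplified with a SMARTer kit that marks no strand, per the labels' protocols. The submitters' processing notes name TopHat, Cufflinks, FastQC and Picard and the build mm10 (GRCm38). The authors deposited 1 table of 23354 genes by 300 cells, whose values were read as FPKM from the named tools and the values themselves; raw counts were not used, so no count model was applied and the depth behind a value is unknown.

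Quartiles came from the labels and preparation numbers from the sample titles. For each gene, log2(FPKM + 1) was averaged over the cells of each quartile and preparation, giving 16 means. Cells were not treated as replicates. Genes at 1 FPKM or more in at least 30 cells (10411) were fitted with limma 3.58.1 in R 4.3.3 (trend and robust variance) with preparation as a block, and p-values were adjusted by Benjamini-Hochberg over all of them. The number in a title was read as 1 of the 4 preparations the design text names, which no label states outright. Deviations of means with the same number had r of 0.0112 to 0.36 (median 0.129, 24 pairs). No pairs with different numbers were set beside them, so these values do not settle the reading. Shares of cells were tested by exact permutation within preparations, with Python 3.11.15. Both tests were tested on simulated data. Differences are understated for low genes by the pseudocount.

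The 10 genes and all gene lists were chosen with earlier results of these data known. Named were the 10 genes; from each further list the genes past the threshold, otherwise up to 4 with the smallest trend p; and 3 most-like genes for each tested member. Others were named after their values were seen: the neighbours of Ring1, Ezhip, Cbx7 and the genes below the filter. Gene positions are from GENCODE vM21. Alternatives changed the pseudocount, filter, block, scaling, averaging, detection threshold and depth covariate, and left out each preparation. One added after seeing the data left out 20 cells that matched another type.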

Additional observations from a re-analysis of the deposited data

Results flagged for a closer look

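Of 48 sets of 4 preparation means (12 genes in 4 quartiles), 2 had a preparation that stood far from the other 3, by a rule under which chance marks about 1 in 20 groups. Ring1 in Q3 was 0.13 on the log2(FPKM + 1) scale in preparation 2 and 0 in the other 3, which rests on 2 cells. Scmh1 in Q3 was 3.68 in preparation 2, while the other preparations lay between 2.53 and 2.72; without preparation 2 the Q1 minus Q4 difference of Scmh1 was 2.60 (limma, adjusted p = 0.00299).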

How the results depend on the processing

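In every alternative run, 0 of the 9 genes were called. Few genes were called at all, 3.25% in Q1 against Q4 and 4.51% in the trend of the main run. Between neighbouring quartiles no run called more than 3 genes in all. A count of 0 of 9 therefore lies near the share of the whole table. Of 297 alternative values for single core genes, 277 kept their direction and side of the threshold and 20 changed sign, none passing it. Part of that agreement was fixed in advance. A changed filter or a dropped block alters only the p-value, never the estimate (Ezh1 in Q1 against Q4 stayed at 0.79). The lowest adjusted p was 0.106 (limma, Ezh1 without preparation 1). Signs changed for estimates near 0. Scml2 in Q1 against Q4 was -0.0456 with centring, -0.345 with the genes-per-cell covariate, -0.180 with log2 of the mean and -0.236 to 0.499 with each preparation left out (negative without preparation 3). Its trend was -0.0517, -0.140 and -0.0683 under the first 3, -0.0055 with a pseudocount of 5 and -0.0857 to 0.107 with each preparation left out (negative without 2 or 3). Bmi1 was -0.0204 with centring and -0.152 with the covariate, and its trend -0.0221, -0.0593 and, with each preparation left out, -0.0013 to 0.0698 (negative without 1). Detection slopes changed sign for Eed (-2.12 points at 5 FPKM, and -0.455 without preparation 1 to 0.712 without 4), Bmi1 (-1.81 above 0 FPKM) and Scml2 (1.45 at 5 FPKM, and -0.167 without preparation 1 to 0.163 without 3). The Ezh2 minus Ezh1 slope was -0.0092 with a pseudocount of 5 and ran from -0.176 to 0.120 with each preparation left out. With each preparation left out, Aebp2 ran from -0.317 to 0.116 (trend -0.0963 to 0.0476) and Asxl2 from -0.0113 to 0.580 (trend -0.0013 to 0.153), changing sign without preparation 4. The causes were not tested.

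Kdm2b also lost its trend call with log2 of the mean (0.42, adjusted p = 0.0597) and without the replicate block (0.46, adjusted p = 0.103), and gained the Q1 against Q4 call without cells matching another type (1.48, adjusted p = 0.0380). Without the replicate block 0 of the 9 genes were called, and 99 genes in all in Q1 against Q4, 177 in the trend, 47 for any difference and 46 in the detection trend, beside 338, 470, 171 and 118 with it. Counts of all genes in Q1 against Q4, the trend and any difference were 135, 197 and 57 with the covariate, 80, 113 and 32 with log2 of the mean, and 177, 274 and 63 with no filter. With 1 preparation left out they were 137 to 270, 176 to 354 and 51 to 109, and 0 in the detection trend, where 3 preparations leave few relabelings. With 4 preparations of 15 to 22 cells per quartile, the 95% intervals limit what can be said of changes under about 1 on the log2 scale. For several of the 9 genes, larger changes between Q1 and Q4 are not excluded either. The intervals reached up to 1.81 for Pcgf6, 1.60 for Rnf2, 1.55 for Ezh1 and 1.45 for Ezh2, and down to -1.12 for Eed.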
